A study of Rattus norvegicus with 12 samples.

Results

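The serpins are a family of proteins most of which inhibit serine proteases, and they were measured here in the denervated rat bladder. Members were taken as all genes whose platform symbol starts with Serpin, without the collagen chaperone Serpinh1 and the complement inhibitor Serping1, which gave 44 of the 18166 genes tested. Each of the 44 was read by a single probe set. RefSeq (assembly GRCr8) lists 49 protein-coding genes with such a symbol, and besides Serpinh1 and Serping1, 3 of them were not analysed here.

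Whole urinary bladders of female Sprague Dawley rats of about 3 months were compared between a sham operation (6 arrays) and a denervating operation with freezing of the ganglia on both sides (6 arrays, taken 10 days later). Total RNA of each sample was hybridised to 1 array, and the values are log2 expression values as deposited. The labels do not say that each array stands for a separate animal, so the p-values measure the spread between these samples. The cell type label names smooth muscle as nearly all of the tissue, and the smooth muscle genes Myh11, Des and Actg2 had sham means of 13.1, 13.1 and 12.9. The 4 uroplakins of the urothelium measured here (Upk1a, Upk1b, Upk2 and Upk3a) had sham means of 12.4 to 12.7, so urothelial RNA was in the samples too. Denervated replicate 2 stood apart. On the first principal component of all genes it was at -5.84, between the sham arrays (-30.2 to -22.5) and the remaining 5 of its group (25.9 to 42.5).

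A serpin carries an exposed loop that its target protease cuts, after which the serpin changes shape and traps the protease in a covalent complex. Secreted members control blood clotting, the plasmin system that dissolves clots and matrix, and the proteases of neutrophils and mast cells. Members of clade B lack a classical secretion signal and act mostly inside cells, where several guard against granzymes and lysosomal cathepsins. A few members have lost inhibition and serve as hormone carriers or signals.

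Of the 44 serpins, 7 rose and 2 fell after denervation, at an adjusted p under 0.05 in limma over all genes. The 9 called members are 20.5% of the family, against 28.7% of all genes called. For rises the shares were 15.9% of serpins and 11.9% of all genes. For falls, the 2 serpins stand against 16.9% of all genes. The median log2 difference was -0.02 over the family and -0.04 over all genes, and the median absolute difference was 0.10 and 0.15. Serpinb10, Serpina3n, Serpinb2, Serpinb9, Serpinb6b, Serpinb13 and Serpinf1 rose, and Serpinb5 and Serpinb6a fell. Only Serpinb10 and Serpina3n changed by more than 2-fold.

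Brightness divided the family. The median gene had a mean of 6.84 over the 12 arrays, and 35 of the 44 serpins lay at or below it. Of the 9 brighter serpins, 5 were called, against 40.9% of all genes in that range. Of the 35 dimmer ones, 4 were called, against 16.5% of all genes there. The deposited table holds no detection calls, so how far the dim members stood above background is unknown, and a fold change of a dim gene is uncertain in size.

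**Figure D1:**
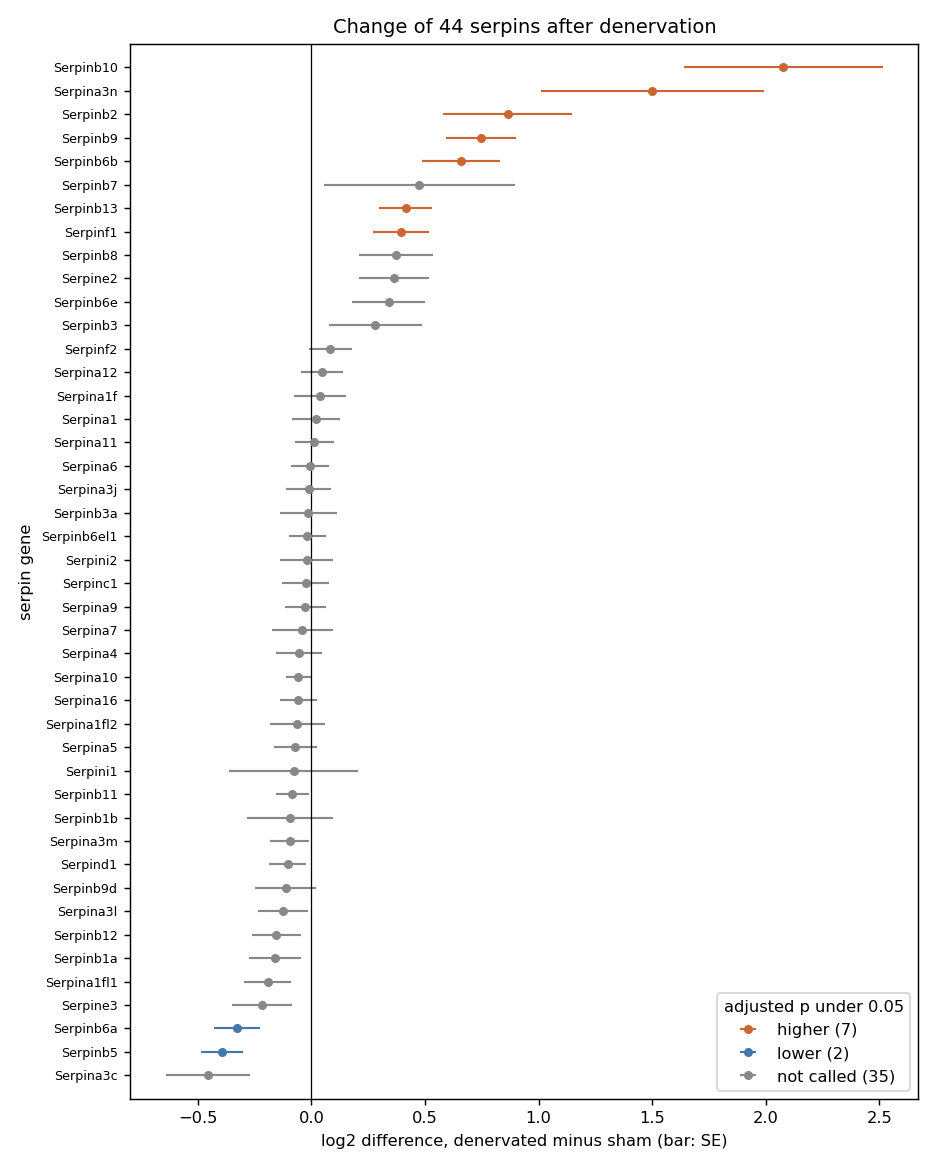
Log2 difference between the means of 6 denervated and 6 sham arrays for each of the 44 serpins (points) with its SE (bars), coloured by call. The 7 rises lie between 0.39 and 2.08, and most grey points lie close to 0.

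Serpinb9 inhibits granzyme B and protects cytotoxic lymphocytes and other cells from it. Its values ran from 9.77 through a median of 9.93 to 10.15 in sham arrays, and from 10.25 through 10.62 to 11.39 in denervated arrays. No denervated array reached down to the sham range. Such a gap upward held for 5.76% of all genes, and a gap in either direction for 13.3%. Serpinb9 rose by 0.75 ± 0.15 (SE, n = 6 per group; limma adjusted p = 0.00292), a 1.68-fold change. The highest value, 11.39, was that of denervated replicate 6, and without that array the rise was 0.61 ± 0.098 (limma adjusted p = 0.000981). Its target granzyme B (Gzmb) stood at 3.56 to 4.00 in sham and 3.79 to 6.32 in denervated arrays and was not called.

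Serpinb10, also named bomapin, is a nuclear serpin of blood-forming and myeloid cells. It ranged from 3.11 (median 3.58) to 4.01 in sham arrays and from 3.52 (median 5.99) to 6.68 in denervated arrays. In 5 denervated arrays it lay between 5.10 and 6.68, above every sham value, while denervated replicate 2 at 3.52 lay among the sham values. It rose by 2.08 ± 0.44 (limma adjusted p = 0.00342), or 4.22-fold, the largest change of the family. Without denervated replicate 2 the rise was 2.50 (limma adjusted p = 1.49e-05). The exact rank-sum test did not call it (adjusted p = 0.0850).

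Serpinb2 is plasminogen activator inhibitor-2, a product of activated monocytes and keratinocytes that inhibits urokinase. It was dim, at 3.24 (median 3.43) to 3.66 in sham arrays, and reached 3.01 (median 4.37) to 5.12 in denervated arrays. The value of denervated replicate 2, 3.01, lay below every sham value, and the other 5 denervated values lay above every sham value. Serpinb2 rose by 0.86 ± 0.28 (limma adjusted p = 0.0350), and by 1.12 ± 0.19 without denervated replicate 2 (limma adjusted p = 0.000501). The call was lost without any single one of sham replicates 1 to 5 or denervated replicates 1, 4 or 5 (limma adjusted p of 0.0551 to 0.0807), and in the exact rank-sum test (adjusted p = 0.158). With all probe sets in the adjustment it was lost too (limma adjusted p = 0.0632).

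In the RefSeq gene order Serpinb2, Serpinb10 and Serpinb8 lie in a run of serpin genes that no other protein-coding gene interrupts. Serpinb8, an inhibitor of the proprotein convertase furin, differed by 0.37 ± 0.16 and was not called (limma adjusted p = 0.107). Its values were 7.69 (median 8.01) to 8.20 in sham and 7.78 (median 8.31) to 9.06 in denervated arrays, with 5 of 6 denervated values above every sham value. Without denervated replicate 3, its lowest denervated array, the difference was 0.49 (limma adjusted p = 0.0236). Without denervated replicate 6, its highest, it was 0.23 (limma adjusted p = 0.158).

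Serpinb6b is a close relative of Serpinb6a and is known in mice as an inhibitor of granzyme A. It stood at 6.02 (median 6.33) to 6.68 in sham and 6.45 (median 7.07) to 7.55 in denervated arrays. All denervated arrays except replicate 4, at 6.45, lay above every sham value. It rose by 0.66 ± 0.17 (limma adjusted p = 0.0115). Serpinb6a, which inhibits cathepsin G and is made in many tissues, went the other way. Its sham values were 9.84 (median 9.91) to 10.11 and its denervated values 9.28 (median 9.58) to 10.02, with 5 of 6 denervated arrays below every sham value and replicate 3 at 10.02 inside the sham range. Serpinb6a fell by 0.33 ± 0.10 (limma adjusted p = 0.0274), and by 0.41 without denervated replicate 3 (limma adjusted p = 0.00256). Its call was lost when replicate 4 or 5 of either group was left out (limma adjusted p of 0.0518 to 0.0627), and in the exact rank-sum test (adjusted p = 0.116). It was also lost with all probe sets in the adjustment (limma adjusted p = 0.0536). Members of this subfamily are close copies, so their probes may share signal.

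Leukocyte markers were measured beside these serpins. All 8 macrophage markers fixed for the check rose, and 7 of 8 T and NK cell markers did. The exception was the T cell gene Cd3g (-0.19), which was not called, and 6 of these 8 lay at or below the median gene. Among the 8, Cd4 had a sham mean of 10.52, against 4.55 (Cd3e) to 6.07 (Cd3g) for the others. Whether Cd4 reads T cells alone was not tested. The mean of the macrophage markers lay 0.95 to 1.86 above the sham mean in the denervated arrays, and that of the T and NK markers 0.44 to 2.13, each highest in replicate 6. Summed over the 8 macrophage markers, log2 values were 67.3 to 69.4 in sham and 76.0 to 83.3 in denervated arrays, and over the 8 T and NK markers 48.1 to 50.9 and 53.0 to 66.6. Denervated replicate 2 kept raised macrophage markers (0.95) while Serpinb10 (-0.05) and Serpinb2 (-0.43) were not above the sham mean. In whole tissue, more cells of a type and more RNA per cell cannot be told apart, and the part of these markers in the serpin changes was not tested. Markers of neutrophils and mast cells were mixed, with 3 of 7 higher and Mpo (-0.13) and Elane (0.10) not called and dim.

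**Figure D2:**
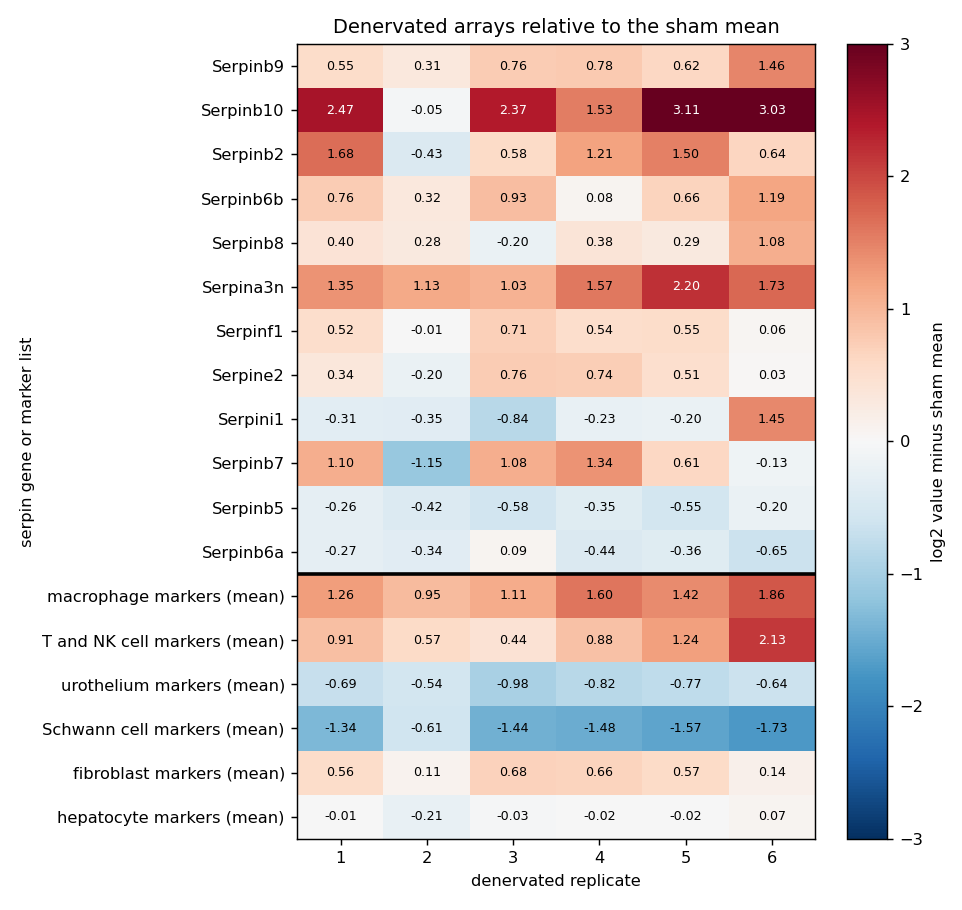
Log2 value of each denervated array (columns, replicates 1 to 6) minus the sham mean, for 12 serpins (upper rows) and for the mean of 6 marker lists (lower rows). Serpinb10 and Serpinb2 lie near or below 0 in replicate 2, and Serpinf1 and Serpine2 lie near or below 0 in replicates 2 and 6, as do the fibroblast markers at 0.11 and 0.14.

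The bases before the start of transcription are shown for the rising genes Serpinb2 and Serpinb10, which are neighbours, and for Serpinb9, so that the sequence can be read beside these values. They are the 250 bases upstream in the RefSeq promoter table (build GRCr8), 5′ to 3′ on the strand of the gene. Capitals mark matches on either strand to the core of the interferon response element (GAAA, any 2 bases, GAAA) and to TGANTCA. The latter is a loose form of the AP-1 element, which has C or G in the middle, and allows any base there. In Serpinb10, capitals mark TTGCNNAA, a C/EBP element. None of the marked matches overlaps another.
Serpinb2, chr13:24055771-24056020, + strand: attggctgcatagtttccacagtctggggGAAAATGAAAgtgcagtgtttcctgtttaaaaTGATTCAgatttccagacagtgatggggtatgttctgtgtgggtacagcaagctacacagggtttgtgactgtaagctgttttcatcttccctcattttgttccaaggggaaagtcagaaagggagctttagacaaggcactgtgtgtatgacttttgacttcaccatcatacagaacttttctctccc
Serpinb10, chr13:24067803-24068052, + strand: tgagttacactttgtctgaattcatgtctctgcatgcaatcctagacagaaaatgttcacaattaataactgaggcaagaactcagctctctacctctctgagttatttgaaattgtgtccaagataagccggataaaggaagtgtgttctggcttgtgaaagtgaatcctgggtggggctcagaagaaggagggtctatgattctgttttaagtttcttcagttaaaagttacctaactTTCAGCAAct
Serpinb9, chr17:31640817-31641066, - strand: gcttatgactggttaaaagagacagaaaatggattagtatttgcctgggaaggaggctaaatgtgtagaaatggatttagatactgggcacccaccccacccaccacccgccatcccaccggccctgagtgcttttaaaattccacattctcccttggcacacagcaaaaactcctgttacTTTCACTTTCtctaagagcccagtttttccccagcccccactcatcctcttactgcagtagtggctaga
The interferon element letters lay at -221 to -212 in Serpinb2 and at -69 to -60 in Serpinb9, and no other of the 36 serpins with a window held them (the first window of each gene was counted). They occur in 3.41% of all 33469 windows of this length, the AP-1 letters in 6.34% and the C/EBP letters in 9.22%. A match describes the letters and does not show that a factor binds.

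Serpinb5, of epithelium, fell without overlap between groups. Serpinb5, or maspin, is an epithelial serpin without protease inhibition that is known as a suppressor of tumour spread. It ran from 10.10 (median 10.23) to 10.56 in sham and from 9.70 (median 9.90) to 10.08 in denervated arrays. Every denervated value lay below every sham value, which held for 7.59% of all genes. Serpinb5 fell by 0.39 ± 0.09 (limma adjusted p = 0.00718), or 1.31-fold. All 7 urothelial markers measured fell as well, and their mean lay 0.54 to 0.98 below the sham mean in the denervated arrays. Their summed log2 value was 80.0 to 82.0 in sham and 73.8 to 76.8 in denervated arrays. The lowest Serpinb5 value (9.70) and the lowest urothelial mean (-0.98) were both in denervated replicate 3. At the other end they did not match. The highest denervated Serpinb5 value (10.08) was in replicate 6, where the urothelial mean was -0.64. The highest urothelial mean of the denervated arrays (-0.54) was in replicate 2, where Serpinb5 was at 9.86. The part of the urothelial markers in the fall of Serpinb5 was not tested.

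The promoter window of Serpinb5 is shown as that of the serpin that fell without overlap, from the same table, with the AP-1 letters at -144 to -138 in capitals.
Serpinb5, chr13:23499953-23500202, + strand: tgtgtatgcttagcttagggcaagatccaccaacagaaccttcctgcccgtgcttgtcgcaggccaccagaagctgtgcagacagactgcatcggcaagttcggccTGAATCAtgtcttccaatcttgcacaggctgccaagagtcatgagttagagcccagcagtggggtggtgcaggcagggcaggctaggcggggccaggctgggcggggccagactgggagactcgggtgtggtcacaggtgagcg
It held no letters of the interferon element, so of the sequences shown the AP-1 letters were in those of Serpinb2, which rose, and Serpinb5, which fell. The middle base was T in Serpinb2 and A in Serpinb5, so neither match had the C or G of the strict AP-1 element.

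Serpinb13, an inhibitor of cathepsins L and K in keratinocytes, rose by 0.42 ± 0.12 (limma adjusted p = 0.0170). It was among the dimmest members, at 2.95 (median 3.14) to 3.52 in sham and 3.16 (median 3.60) to 3.80 in denervated arrays. The groups overlapped through sham replicate 4 (3.52) and denervated replicate 6 (3.16). Serpinb7, known as megsin from kidney mesangial cells, was not called (0.48 ± 0.42, limma adjusted p = 0.447). It varied widely in both groups, from 6.10 (median 6.99) to 7.80 in sham and from 5.81 (median 7.81) to 8.30 in denervated arrays, and denervated replicate 2 was the lowest of all 12. Without that array its difference was 0.80 (limma adjusted p = 0.0903), and it was 0.30 without denervated replicate 4 (limma adjusted p = 0.662) or without sham replicate 1 (limma adjusted p = 0.667).

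The remaining clade B genes were not called. Serpinb1a, an inhibitor of neutrophil elastase that was bright here, differed by -0.16 ± 0.11. Serpinb6e differed by 0.34, Serpinb3 by 0.28, Serpinb12 by -0.15, Serpinb9d by -0.11, Serpinb1b by -0.09, Serpinb11 by -0.08, Serpinb6el1 by -0.02 and Serpinb3a by -0.01. Of these 8, all at or below the median gene, Serpinb6e was called without denervated replicate 2 (0.43, limma adjusted p = 0.0447) and Serpinb12 without sham replicate 2 (-0.24, limma adjusted p = 0.0496). Without denervated replicate 6 the Serpinb6e difference was 0.22 (limma adjusted p = 0.254). In all, 5 of 18 clade B members rose and 2 fell, against 11.9% and 16.9% of all genes.

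**Figure D3:**
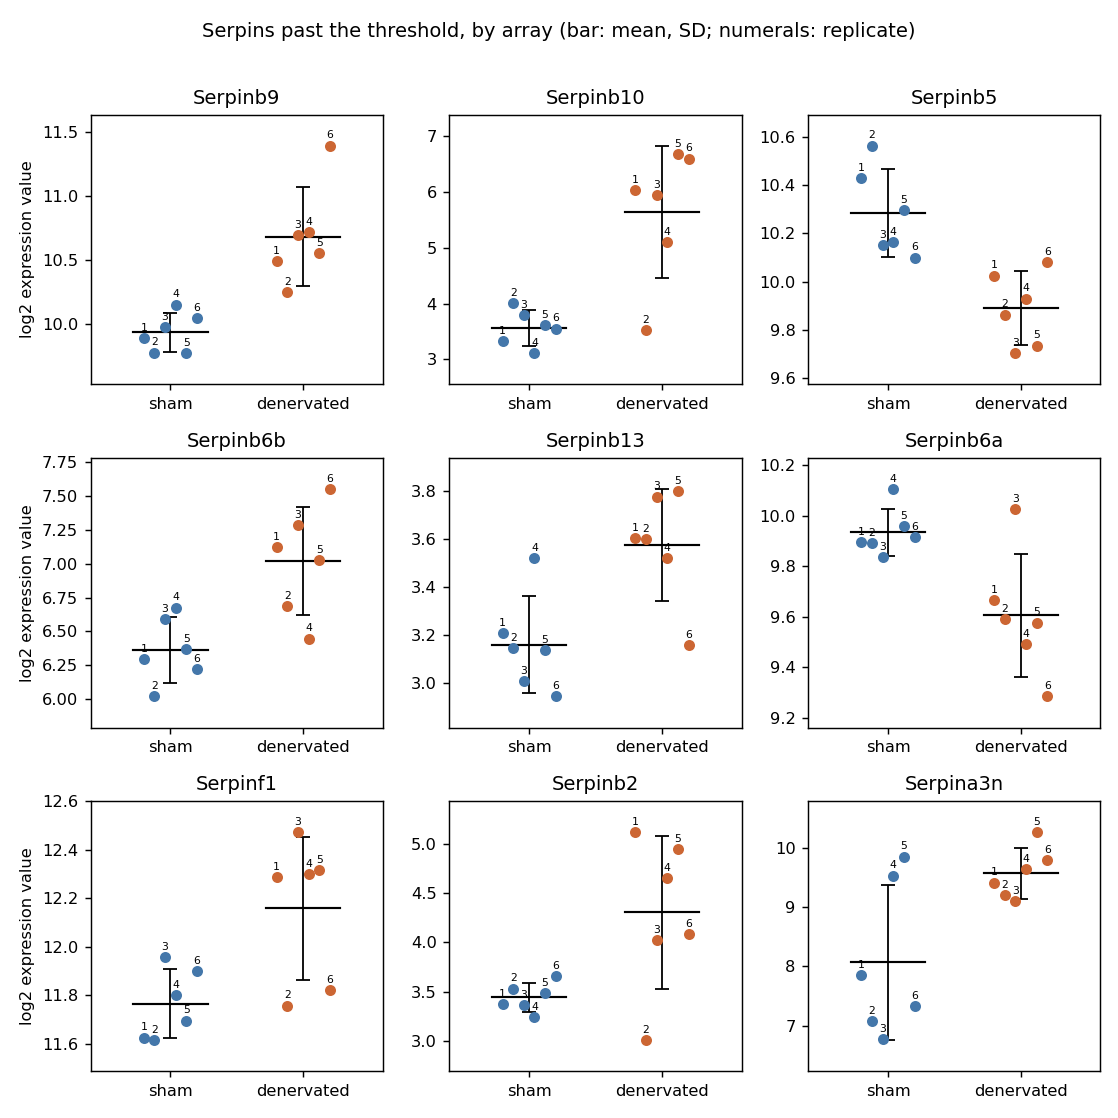
Log2 expression values of the 9 called serpins on each array (points, with the replicate number), with the mean and SD of each group of 6. Serpinb9 and Serpinb5 are the only 2 panels in which sham and denervated points do not overlap, and in the panel of Serpina3n sham replicates 4 and 5 lie at the level of the denervated arrays.

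Among secreted serpins, Serpina3n changed most. It is an acute-phase protein that inhibits granzyme B and leukocyte elastase and is known as a marker of reactive astrocytes. Its sham values were 7.86, 7.08, 6.77, 9.53, 9.86 and 7.33 in replicates 1 to 6, and its denervated values were 9.42, 9.20, 9.10, 9.64, 10.27 and 9.80. The 6 denervated arrays lay within 9.10 to 10.27, while sham replicates 4 and 5 stood at denervated level and the other 4 sham arrays at most at 7.86. Serpina3n rose by 1.50 ± 0.49 (limma adjusted p = 0.0351), or 2.83-fold. The sham SD of 1.31 was far above the family median of 0.17. The call was lost without any single one of sham replicates 1, 2, 3 or 6 or denervated replicates 1, 4, 5 or 6 (limma adjusted p of 0.0536 to 0.0789), in the exact rank-sum test (adjusted p = 0.265) and with all probe sets in the adjustment (limma adjusted p = 0.0630). Without sham replicate 5 the rise was 1.86 (limma adjusted p = 0.00718) and without sham replicate 4 it was 1.79 (limma adjusted p = 0.0138).

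Genes next to Serpina3n did not share this. Serpina3l, the nearest serpin in the RefSeq order, stood at 4.91 to 5.25 in sham arrays, and Serpina3c at 4.42 to 5.48 with its highest value in sham replicate 1. Serpina3c differed by -0.46 ± 0.18 and was not called (limma adjusted p = 0.0820), and without denervated replicate 2 it was called lower (-0.54, limma adjusted p = 0.0339). Without sham replicate 1 it was -0.31 (limma adjusted p = 0.153). These genes are close copies, and their probes may share signal. The Serpina3n window below, from the same table, is shown because its values split the sham group, and its capitals mark the STAT element letters TTCNNNGAA at -123 to -115.
Serpina3n, chr6:129088142-129088391, + strand: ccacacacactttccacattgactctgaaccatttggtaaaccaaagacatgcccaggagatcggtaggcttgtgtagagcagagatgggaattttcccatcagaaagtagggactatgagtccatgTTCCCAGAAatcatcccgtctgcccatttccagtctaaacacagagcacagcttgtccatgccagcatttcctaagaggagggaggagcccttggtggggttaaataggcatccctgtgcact
The STAT letters occur in 7.67% of all windows and in 4 of the 36 serpins with a window, and Serpina3n was the only called serpin among the 4. The letters shown are those of the reference genome, and no sequence of these rats was read.

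Serpinf1, pigment epithelium-derived factor, is a secreted serpin without protease inhibition that restrains vessel growth and supports neurons. It was bright, at 11.62 (median 11.75) to 11.96 in sham and 11.76 (median 12.29) to 12.47 in denervated arrays. Denervated replicates 2 (11.76) and 6 (11.82) lay among the sham values, and the other 4 lay above all of them. Serpinf1 rose by 0.39 ± 0.12 (limma adjusted p = 0.0294), and by 0.47 ± 0.11 without denervated replicate 2 (limma adjusted p = 0.00494). Leaving out any 1 of 7 arrays ended the call: sham replicates 1, 2 and 5, and denervated replicates 1, 3, 4 and 5 (limma adjusted p of 0.0582 to 0.0653). The exact rank-sum test did not call it (adjusted p = 0.116), nor did limma over all probe sets (adjusted p = 0.0557).

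Serpine2, protease nexin-1, is made by fibroblasts, smooth muscle and glia and inhibits thrombin, urokinase and tissue plasminogen activator. It had values of 7.87 (median 8.11) to 8.27 in sham and 7.87 (median 8.50) to 8.84 in denervated arrays. The same denervated replicates 2 (7.87) and 6 (8.10) lay inside the sham range, and the other 4 lay above it. Its difference of 0.36 ± 0.15 was not called (limma adjusted p = 0.0977), and without denervated replicate 2 it was 0.48 ± 0.13 (limma adjusted p = 0.0118). Fibroblast markers were also lowest in those arrays of the group, with means of 0.11 and 0.14 above the sham mean in denervated replicates 2 and 6 and 0.56 to 0.68 in the other 4. Of the 7 fibroblast markers 4 rose: Fap (1.58), the collagen genes Col1a1 (0.60) and Col3a1 (0.49), and Dpt (0.18). Lum (0.29), Pdgfra (0.16) and Dcn (-0.12) were not called, so the mean does not stand for all fibroblast markers alike. The summed log2 value of the 7 markers was 76.4 to 78.3 in sham and 78.1 to 82.1 in denervated arrays. Their part in the values of Serpinf1 and Serpine2 was not tested.

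Serpini1, neuroserpin, is secreted by neurons and inhibits tissue plasminogen activator. Its sham values were narrow, 6.46 (median 6.59) to 6.69, and its denervated values ran from 5.73 (median 6.31) to 8.03. In 5 of 6 denervated arrays it lay at 5.73 to 6.38, below every sham value, and in replicate 6 at 8.03 it lay above every sham value. The difference over all arrays was -0.08 ± 0.28 (limma adjusted p = 0.872). Without denervated replicate 6 it was -0.38 ± 0.11 (limma adjusted p = 0.0188), and without denervated replicate 3 it was 0.07 (limma adjusted p = 0.880). In the same replicate 6 the T and NK markers were at their highest (2.13) and the neuron and axon markers at their lowest (-0.41). The neuron and axon markers were mixed: of 7, 2 fell, 1 rose (Tubb3, 1.34) and 4 were not called. All 5 Schwann cell markers measured fell, with a mean 0.61 to 1.73 below the sham mean in the denervated arrays. How these markers bear on Serpini1 was not tested.

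**Figure D4:**
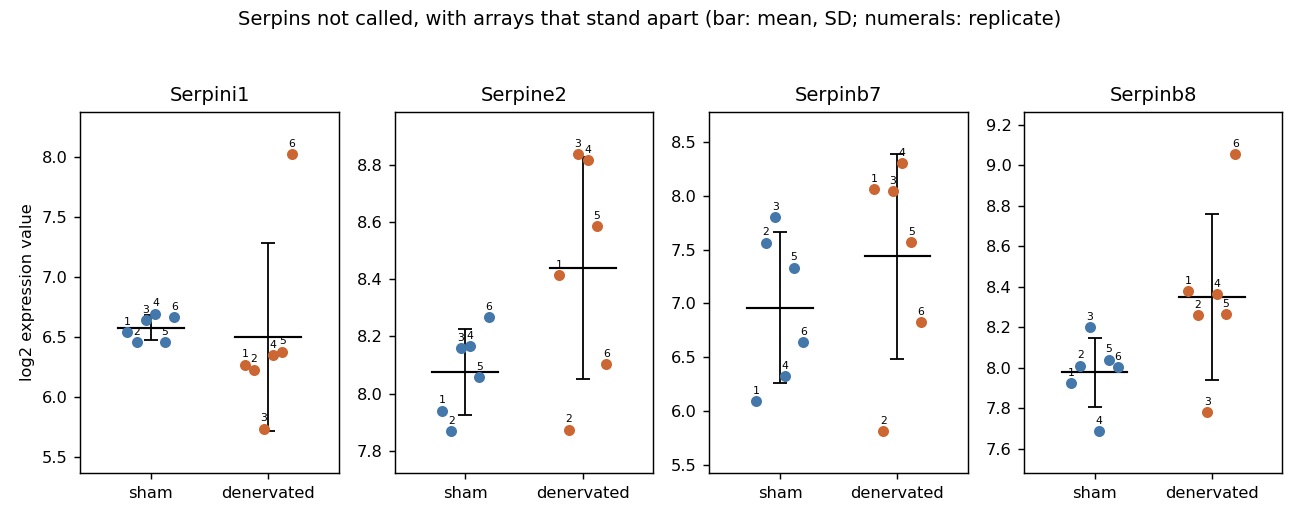
Log2 expression values of 4 serpins that were not called, on each array (points, with the replicate number), with the mean and SD of each group of 6. Denervated replicate 6 is the highest point for Serpini1 and Serpinb8, and denervated replicate 2 is the lowest denervated point for Serpine2 and Serpinb7.

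Serpins that in humans circulate in plasma and are made chiefly by the liver gave little signal. The clotting inhibitors antithrombin (Serpinc1, -0.02), heparin cofactor II (Serpind1, -0.10) and the protein Z-dependent inhibitor (Serpina10, -0.06) were not called. Neither were the plasmin inhibitor Serpinf2 (0.08), antitrypsin (Serpina1, 0.02), the protein C inhibitor (Serpina5, -0.07) and kallistatin (Serpina4, -0.06). The hormone carriers Serpina6 for corticosteroids (-0.01) and Serpina7 for thyroxine (-0.04) were not called either. All of these lay at or below the median gene, and so did the 6 liver markers measured, such as Alb (0.08), of which none was called (limma). The hepatocyte markers had a summed log2 value of 29.3 to 31.1 in sham and 28.8 to 30.5 in denervated arrays.

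Clade A as a whole had 1 of 18 members called, Serpina3n, against 28.7% of all genes and 16.5% of genes at or below the median gene. The 17 others ranged from -0.46 to 0.05 in their differences, and all were at or below the median gene. Besides those already named they were Serpina11 (0.01), Serpina12 (vaspin, an adipose serpin, 0.05), Serpina9 (centerin, of germinal centre B cells, -0.03), Serpina16 (-0.06), Serpina3l (-0.13), Serpina3m (-0.10) and Serpina3j (-0.01). The copies Serpina1f (0.04), Serpina1fl1 (-0.19) and Serpina1fl2 (-0.06) complete the clade. Outside it, the pancreatic Serpini2 (-0.02) and Serpine3 (-0.22) were not called.

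Proteases, receptors and other genes around the serpins were counted from 5 lists. In the plasminogen list, which is wider than the plasminogen system itself, 9 of 21 measured genes rose and 4 fell. That is 61.9% called against 28.7% of all genes. Only 7 of the 21 lay at or below the median gene, and among all genes above it 40.9% were called. Tissue plasminogen activator (Plat) had values of 10.12 (median 10.40) to 10.73 in sham and 10.69 (median 11.39) to 11.62 in denervated arrays and rose by 0.89 ± 0.15 (limma adjusted p = 0.00113). The urokinase receptor Plaur rose by 0.50 ± 0.14, while urokinase itself (Plau, 0.32 ± 0.12) was not called (limma adjusted p = 0.0581) and was called without denervated replicate 2 (0.40, limma adjusted p = 0.0136). Plasminogen (Plg, 0.06) was dim and not called. Lrp1, the endocytic receptor that clears serpin-protease complexes, rose by 0.51 ± 0.07 with no overlap between groups, from at most 10.39 in sham to at least 10.61 in denervated arrays. Vitronectin (Vtn, 0.51), the related receptor Lrp8 (0.83) and the collagen receptor Mrc2 (0.81) rose too. So did hepatocyte growth factor (Hgf, 0.80), which urokinase can activate. The 4 of the list that fell were Enpp2 (-0.63), Sorl1 (-0.39), Lrp2 (-0.37) and Mst1 (-0.22). Of these, Enpp2 is not itself a gene of the plasminogen system. Lrp2 is also a related receptor, as are Vldlr (0.36) and Lrp1b (-0.10), which were not called. The number that fell was 2 in place of 4 when any of sham replicates 3 to 6, or of denervated replicates 3, 4 and 6, was left out.

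In the clotting list 7 of 30 genes rose and 3 fell, or 33.3% called. Thrombin receptor F2r rose by 0.83 ± 0.12 and tissue factor F3 by 0.51 ± 0.14, and thrombomodulin (Thbd, -0.05) was not called. Factor X (F10, 1.68 ± 0.38) and factor V (F5, 1.12 ± 0.14) rose from levels at or below the median gene. Biglycan (Bgn, 0.85), a bright matrix proteoglycan, rose too. The fibrinogen gamma chain (Fgg), also at or below the median gene, fell by 1.19. Its values were 5.07 (median 5.34) to 7.23 in sham and 3.96 to 4.99 in denervated arrays. The other fibrinogen chains Fga (-0.02) and Fgb (-0.05) were not called.

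Of 20 measured serine proteases of leukocytes 3 rose and 1 fell, a smaller share than the 28.7% of all genes called. But 17 of the 20 lay at or below the median gene, where 16.5% of all genes were called. The smaller share therefore does not show that these proteases changed less often than other genes of like brightness. Complement factor D (Cfd, 1.34 ± 0.24), granzyme M (Gzmm, 0.62 ± 0.15) and the mast cell tryptase Tpsab1 (0.59 ± 0.13) rose and Prss57 (-0.27) fell. Of these, Cfd is not confined to leukocytes, as adipocytes make it too. Neutrophil elastase (Elane, 0.10) and cathepsin G (Ctsg, 0.11), classical serpin targets, were dim and not called, as was granzyme B (0.66 ± 0.36, limma adjusted p = 0.194).

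Of 41 other serine and cysteine proteases 17 rose and 3 fell, or 48.8% called. The lysosomal cathepsins Ctsk (1.34 ± 0.18) and Ctss (1.10 ± 0.14), the fibroblast protease Fap (1.58) and the protease-like Prss35 (3.71) rose. Of 32 other secreted protease inhibitors 6 rose and 4 fell, or 31.2% called. The leukocyte protease inhibitor Slpi (1.90 ± 0.21), Timp1 (1.80) and cystatin F (Cst7, 1.04) rose, and Spink8 fell by 0.76. Slpi had values of 6.20 to 6.99 in sham and 8.06 to 9.18 in denervated arrays, with no overlap.

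Leaving out denervated replicate 2 changed the family counts to 9 higher and 3 lower of 44. That is 27.3% of the serpins, against 34.5% of all genes called in the same fit (14.4% higher and 20.2% lower). Serpine2 and Serpinb6e were the 2 added rises and Serpina3c the added fall.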

How the data were processed

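Per the submitters' processing notes, the authors made the deposited log2 values by RMA in Affymetrix Expression Console 1.4.1.46, which corrects background, quantile-normalizes arrays and summarises probes. The genome build is not given in the sources used here. Array medians over all probe sets lay between 5.82 and 5.90. Precision is limited by having 6 arrays per group.

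Gene names came from the platform annotation. Of 36685 probe sets, 18511 carry 1 gene, and the brightest stood for each of 18166 genes. Denervated minus sham was fitted with limma 3.58.1 in R 4.3.3 over all genes, with Benjamini-Hochberg adjustment. The code was tested on simulated data. Alternatives covered normalization, brightness, variance model, test, probe sets, block and each array left out. Members and lists were chosen with earlier results of these data known. All serpins are accounted for, called ones with values per group; from each list up to 4 called genes with the largest change and 12 fixed genes were named, and other genes were named after their values were seen. No protein sequences were used.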

Additional observations from a re-analysis of the deposited data

Results flagged for a closer look

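In 88 groups of 6 arrays, 2 for each of the 44 serpins, 4 values stood apart from the other 5 of their group by Dixon's 95% criterion. Chance alone flags about 1 in 20 groups, and 4 of 88 is 4.55%. Serpini1 in denervated replicate 6 was at 8.03, against 5.73 to 6.38 in the other 5. Serpina3c in sham replicate 1 was at 5.48, against 4.42 to 4.79. Serpina6 in sham replicate 3 was at 4.72, against 4.24 to 4.38, and Serpinc1 in the same array was at 4.10, against 4.45 to 4.64. The last 3 genes were dim and not called.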

How the results depend on the processing

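None of the 9 called serpins changed direction under other normalization, with array weights or with any array left out. The brightness filter, variance model, rank-sum test, probe set settings and block gave the same difference by design. Those settings could not test direction. Each serpin had a single probe set, so the mean of probe sets left its values unchanged. Over 21 alternatives, 4 of the 9 (Serpinb9, Serpinb5, Serpinb6b and Serpinb13) stayed called in every alternative that kept them. The count of serpins higher was 7. It was 3 among genes above the median brightness, where 4 called members were not tested, 3 with the exact rank-sum test and 4 over all probe sets. The count of serpins lower was 2, and 1 with the exact rank-sum test, over all probe sets and with the replicate block. Leaving out each array gave 4 to 9 higher and 1 to 3 lower. The count higher was 4 when sham replicate 1 or 2, or replicate 1, 4 or 5 of the denervated group, was left out, and the count lower was 1 without replicate 4 or 5 of either group. Except for the brightness filter, the cause was not tested. With array weights, Serpine2 (0.49) and Serpina3c (-0.57) were called. The replicate number gave no sign of pairing: deviations of same-numbered arrays correlated at -0.11 to 0.10, 2 of 12 arrays correlated best with their own number, and with the block 4460 genes were called against 5216, and 7 serpins rose and 1 fell, Serpinb6a being lost (limma adjusted p = 0.0626).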

Other observations

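The split of Serpina3n within the sham group was wide for the whole array. Its gap between neighbouring sham values with at least 2 arrays on each side was 1.68, against a median of 0.09 over all genes, and 3 of 18166 genes had a wider one. The gap of Serpini1 between denervated replicate 6 and the next array was 1.65, against a median of 0.10, and 47 genes had a wider one. These measures were chosen after the values were seen.

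The SMAD box letters CAGACA, searched on both strands, were in the 250 upstream bases of 16 of the 36 serpins with a window (44.4%), against 17.2% of all windows. Several motifs were searched, and this one showed the widest contrast of them. The C/EBP letters were in 16.7% of these serpins and 9.22% of all windows, and the PU.1 letters GAGGAAG in 8.33% and 10.2%. Serpinb10, Serpinb2, Serpinb6b and Serpinf1, which rose, and Serpinb5, which fell, were among the 16 with the SMAD letters. The rest of the 16 were not called. Close copies in the family share sequence, so these windows are not independent.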
